A study of Sus scrofa with 24 samples.

Results

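The lipid droplet coat and lipolysis genes followed here were 10 genes chosen by name: PLIN1, PLIN2, PLIN3, PLIN4, PLIN5, CIDEC, PNPLA2, LIPE, MGLL and ABHD5. All 10 were found by symbol among the 25462 genes of the expression table. Pig preadipocytes from back subcutaneous fat (BF) and from the longissimus dorsi muscle (intramuscular, IMF) were differentiated in culture, and polyA RNA was sequenced on days 0, 2, 4 and 8. The 8 groups, BF-0d to BF-8d and IMF-0d to IMF-8d, held 3 libraries each, 24 in all. The cells came from 3 Yorkshire piglets aged 6 days, and the labels do not say which library came from which piglet. Every group was cultured to near confluence, and the day 0 cells had not met the induction medium, which held 3-isobutyl-1-methylxanthine (a phosphodiesterase inhibitor that raises cAMP), dexamethasone and insulin for 2 days. Medium with insulin alone followed for 2 days and growth medium after that, so the days differ in medium as well as in time. The cells were grown from a collagenase digest of each tissue, with no sorting or cloning step given, and all later cultures were induced. The muscle was digested for longer and at a higher collagenase concentration than the back fat, so the depots also differ in isolation.

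A lipid droplet is a core of triacylglycerol and cholesteryl ester under a single phospholipid layer, which carries coat proteins. The perilipins (PLIN1 to PLIN5) are the main coat family: PLIN1 is typical of fat cells and holds back lipolysis until protein kinase A phosphorylates it, PLIN2 coats droplets in most cell types, PLIN3 moves from the cytosol onto newly formed droplets, PLIN4 also covers young droplets, and PLIN5 belongs to tissues that burn fat. CIDEC drives the transfer of lipid between touching droplets and so makes them larger. Lipolysis runs in 3 steps: PNPLA2 (adipose triglyceride lipase) removes the first fatty acid from triacylglycerol, LIPE (hormone-sensitive lipase) the next, and MGLL (monoglyceride lipase) the last. ABHD5 is the coactivator of PNPLA2 that PLIN1 keeps bound in unstimulated fat cells.

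Values are FPKM (fragments per kilobase of transcript, scaled by the mapped reads of each library), which are scaled by gene length, so that levels of different genes can be set side by side. Changes are differences of log2(FPKM + 1), which understate the change of genes near or below 1 FPKM. They were fitted with limma over 16135 genes whose FPKM summed over the 24 libraries was above 1, and a gene was called where the Benjamini-Hochberg adjusted p was under 0.01 and the log2 difference at least 1 in size. Total FPKM per library ranged from 307967 to 385768, and 9985 to 10858 genes reached 1 FPKM. The FPKM values themselves carry no read depth. A lower level in a culture can come from fewer cells of a type or from less RNA per cell, and these cannot be told apart here.

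The adipocyte label was checked against 16 marker genes, of which 14 were in the table and 3 (PLIN1, CIDEC and LIPE) are themselves among the 10 genes. 7 of the 14 passed the filter on low values and 6 reached a group mean of 1 FPKM, while 5 stayed under 0.1 FPKM in every library, among them PLIN1, LEP and DGAT2. ADIPOQ (adiponectin) reached at most 0.230 FPKM and was listed at 0 in 17 libraries. LPL (lipoprotein lipase), in contrast, rose in BF from a mean of 2.22 FPKM on day 0 to 422 on day 8 and in IMF from 1.06 to 120. PPARG, the master regulator of adipogenesis, had means of 3.0 FPKM in BF-0d and 0.973 in BF-8d, and stayed between 0.123 and 0.854 in IMF. CEBPA, its partner, was highest in BF-2d at 9.37 and in IMF-4d at 5.89. FABP4, a fatty acid carrier, had group means from 0 to 3.47 FPKM and was listed at 0 in 7 libraries. GPD1 ranged from 0.522 to 1.11 FPKM. Several defining markers of mature fat cells were therefore absent or near absent, and the cultures are called by depot and day.

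Markers of other cell types moved with depot and day as well. Of 11 preadipocyte and stromal markers, 3 rose (PDGFRA, NT5E and CD44) and 2 fell (COL1A1 and DCN) from BF-0d to BF-8d, with a median log2 difference of 0.31, and 1 rose (PDGFRA) and 1 fell (COL1A1) in IMF, with a median of 0.07. Their summed FPKM was 10320 to 11414 in BF-0d and 5804 to 6726 in BF-8d, and 11913 to 12389 in IMF-0d against 7093 to 8217 in IMF-8d, but much of it was COL1A1, with means of 5753 and 845 in BF and 6135 and 2062 in IMF. PDGFRA had means of 77.0 FPKM in BF-0d and 228 in BF-8d, and 60.1 and 226 in IMF. Between depots the called stromal markers were 2 higher and 0 lower in IMF on day 0, 2 and 1 on day 2, 4 and 3 on day 4, and 3 and 1 on day 8. Of 14 myogenic markers only DES passed the filter. It was called higher in IMF on all 4 days, with 29.6 to 45.3 FPKM in IMF-0d against 4.5 to 4.88 in BF-0d, and a mean of 11.7 in IMF-4d against 0 to 0.0548 in BF-4d. Over the 8 days it fell by 2.43 in BF and 3.82 in IMF on the log2 scale, while MYOD1, MYF5, MYF6 and MYMK were listed at 0 throughout. The summed endothelial markers averaged 21.1, 8.30, 8.48 and 8.44 FPKM in BF over the 4 days in order, and 25.1, 19.9, 16.2 and 12.4 in IMF. Nearly all of that was ERG and PECAM1, of which ERG was called higher in IMF on day 2 and PECAM1 on day 8, while CDH5, KDR, TEK and TIE1 did not exceed 0.101. The pan-leukocyte gene PTPRC did not exceed 0.00835 FPKM and CD3E was listed at 0, although CD79A ranged from 47.9 to 130, CD14 from 2.10 to 17.1 and CD68 from 0.609 to 2.47. The part of these shifts in the results on the 10 genes was not tested. One library, BF-2d replicate 3, stood between its group and the day 0 cells: its LPL was 6.71 FPKM against 77.7 and 82.1 in replicates 1 and 2. The named day 2 differences of the 10 genes and of the genes around them that were called or passed the adjusted p are given with and without it.

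The 3 members whose calls carry the results below, PLIN2, PLIN3 and MGLL, are shown with the 250 bases before their annotated start, so that the sequence next to each start can be read beside its expression. PLIN2 (ENSSSCG00000035863) lies on chromosome 1 (203683867 to 203709277), PLIN3 (ENSSSCG00000038954) on chromosome 2 (73970149 to 73995314) and MGLL (ENSSSCG00000024134) on chromosome 13 (72480395 to 72568964), each on the plus strand of Sscrofa11.1 in the RefSeq annotation. The windows are chr1:203683617-203683866, chr2:73969899-73970148 and chr13:72480145-72480394, printed 5′ to 3′, with capitals where a searched motif matched.
PLIN2: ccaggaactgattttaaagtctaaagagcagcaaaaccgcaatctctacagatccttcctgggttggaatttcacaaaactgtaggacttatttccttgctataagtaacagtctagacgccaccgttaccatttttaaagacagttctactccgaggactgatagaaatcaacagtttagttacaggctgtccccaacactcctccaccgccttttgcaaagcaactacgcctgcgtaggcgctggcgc
PLIN3: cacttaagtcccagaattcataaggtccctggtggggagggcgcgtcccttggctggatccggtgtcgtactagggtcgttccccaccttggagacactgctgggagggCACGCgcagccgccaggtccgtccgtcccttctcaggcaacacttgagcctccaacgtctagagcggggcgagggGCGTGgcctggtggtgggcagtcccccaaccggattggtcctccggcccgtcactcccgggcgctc
MGLL: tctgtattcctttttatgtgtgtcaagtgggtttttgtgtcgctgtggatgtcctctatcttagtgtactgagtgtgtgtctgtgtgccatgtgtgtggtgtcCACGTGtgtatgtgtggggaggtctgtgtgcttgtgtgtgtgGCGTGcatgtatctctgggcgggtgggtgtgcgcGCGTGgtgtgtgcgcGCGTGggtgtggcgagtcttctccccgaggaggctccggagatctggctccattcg
RefSeq lists 5 mRNAs of PLIN2, 6 of PLIN3 and 4 of MGLL, and only the start of the gene as annotated was read. The capitals in PLIN3 and MGLL are matches to GCGTG or ACGTG, the cores of hypoxia response elements, or their reverse complement. The first 6 capitals in MGLL are ACGTG matches on both strands that overlap.

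PLIN2, the droplet coat protein of most cell types, was the most abundant of the 10 transcripts by its median over the 24 libraries (27.1 FPKM, above that of 93.3% of all genes), and its level set the depots apart after day 0. In BF-0d its FPKM was 18.1, 19.1 and 18.5 in replicates 1, 2 and 3. In BF-2d it was 88.9, 86.7 and 43.2. In BF-4d it reached 142, 138 and 206, and in BF-8d 203, 103 and 185. No library of BF-2d overlapped BF-0d and none of BF-4d overlapped BF-2d, whereas BF-4d and BF-8d overlapped. In IMF the same transcript was 25.6, 23.6 and 22.3 FPKM on day 0, and 30.7, 29.1 and 28.4 on day 2. It was 24.7, 22.7 and 23.4 on day 4, and 25.8, 24 and 23.2 on day 8. All 12 IMF libraries thus lay above BF-0d and below every BF library from day 2 on.

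**Figure D1:**
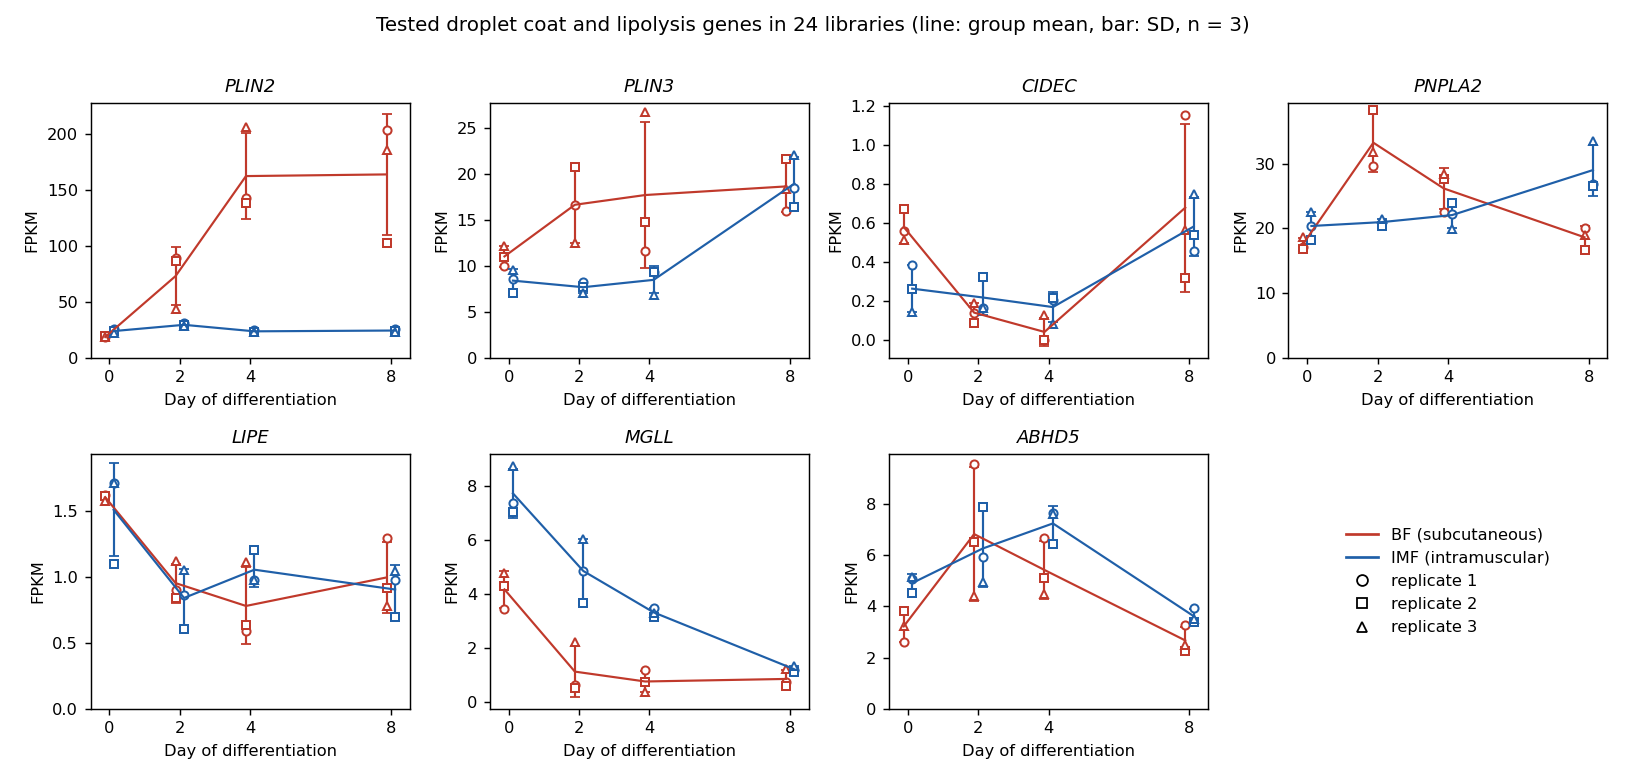
FPKM of the 7 tested members against the day of differentiation, with BF in red and IMF in blue. Each marker is 1 library, shaped by replicate, lines join the group means and bars are the SD (n = 3). PLIN2 in BF leaves the IMF level from day 2 and reaches means of 162 and 164 FPKM on days 4 and 8, against 23.6 and 24.3 in IMF.

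The mean of PLIN2 went from 18.6 ± 0.509 FPKM (SD, n = 3) in BF-0d to 72.9 ± 25.8 in BF-2d, 162 ± 38.2 in BF-4d and 164 ± 53.6 in BF-8d, 8.81 times the day 0 mean. PLIN2 rose from BF-0d to BF-2d by 1.85 on the log2 scale (SE 0.23, limma adjusted p = 7.27e-06). It rose again from BF-2d to BF-4d by 1.19 (adjusted p = 0.00127). From BF-4d to BF-8d the difference was -0.02 (adjusted p = 0.972, 95% interval -0.51 to 0.46). Without BF-2d replicate 3 the first step was 2.18 (adjusted p = 6.79e-08) and the second 0.85 (adjusted p = 0.00769), under the fold limit. With only the 2 compared groups in the fit, the adjusted p was 0.0120 for the first step and 0.167 for the second, and neither was called. Over all 8 days PLIN2 rose by 3.01 (adjusted p = 3.52e-09).

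In IMF no step of PLIN2 was called: 0.29 over days 0 to 2, -0.31 over days 2 to 4 and 0.04 over days 4 to 8. The net difference from IMF-0d to IMF-8d was 0.03 (limma adjusted p = 0.946), with a 95% interval of -0.46 to 0.51. On day 0 the depots differed by 0.34 (IMF minus BF, adjusted p = 0.398), although the 2 sets of libraries did not overlap. At the later days PLIN2 was lower in IMF, with differences of -1.21 at day 2 (adjusted p = 0.000888), -2.70 at day 4 (adjusted p = 2.51e-08) and -2.64 at day 8 (adjusted p = 5.41e-08). Without BF-2d replicate 3 the day 2 difference was -1.55 (adjusted p = 7.76e-06), and with only the 2 day 2 groups in the fit it was not called (adjusted p = 0.0607).

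The change of PLIN2 itself was compared between depots as the IMF change minus the BF change. Over days 0 to 8 this difference was -2.98 (SE 0.33, limma adjusted p = 3.91e-06), and it was called in each of the 24 fits that left out 1 library, between -3.29 and -2.80. For the single steps it was -1.55 over days 0 to 2 (adjusted p = 0.00526) and -1.49 over days 2 to 4 (adjusted p = 0.00635). With only the compared libraries in the fit these had adjusted p values of 0.0160 and 0.0382 and were not called. The first was -1.89 and called without BF-2d replicate 3 (adjusted p = 5.33e-05), and lost its call without any of the 9 libraries of BF-0d, IMF-0d and IMF-2d and without BF-2d replicate 1 or 2, with adjusted p up to 0.0176. The second lost it without BF-2d replicate 3 (-1.16), BF-4d replicate 3 (-1.31) or any of the 6 libraries of IMF-2d and IMF-4d, with adjusted p up to 0.0186. Over days 4 to 8 the difference was 0.06.

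PLIN3, which coats newly formed droplets, had its largest step at another time and in the other depot. In IMF its FPKM stayed between 7.06 and 9.50 on day 0, 7.03 and 8.25 on day 2, and 6.78 and 9.35 on day 4. In IMF-8d it was 18.4, 16.4 and 22.0, above every earlier IMF library. PLIN3 rose from IMF-4d to IMF-8d by 1.08 (SE 0.22, limma adjusted p = 0.000831) and from IMF-0d to IMF-8d by 1.09 (adjusted p = 0.000617). Both were close to the fold limit: the step was 0.94 without IMF-4d replicate 3 and 0.97 without IMF-8d replicate 3, and the net change was 0.98 without IMF-0d replicate 2 or IMF-8d replicate 3, each under the limit with an adjusted p under 0.01.

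In BF the PLIN3 libraries were 9.93, 11 and 12.1 FPKM on day 0, 16.7, 20.7 and 12.51 on day 2, 11.6, 14.8 and 26.7 on day 4, and 16, 21.6 and 18.3 on day 8. The day 2 and day 8 libraries lay above all of day 0, while day 4 overlapped every other BF day. The net difference from BF-0d to BF-8d was 0.70 (limma adjusted p = 0.0124) and was not called. On day 2 the depot difference of PLIN3 was -0.999 (adjusted p = 0.00269), just under the limit, and it was called at -1.18 without BF-2d replicate 3, at -1.05 without IMF-2d replicate 1 and at -1.01 without IMF-2d replicate 2. On day 4 it was -0.91 (adjusted p = 0.00235), and -1.16 and called without BF-4d replicate 1. By day 8 the depots had means of 18.6 ± 2.79 (BF) and 18.9 ± 2.85 FPKM (IMF), a difference of 0.02. The depot difference in the change over days 4 to 8 was 0.93 (adjusted p = 0.0439), and 1.18 (adjusted p = 0.00927) without BF-4d replicate 1. Over days 0 to 8 it was 0.38 (limma adjusted p = 0.435, 95% interval -0.27 to 1.04) and not called.

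PLIN2 and PLIN3 together made up almost the whole perilipin total, and on day 8 the PLIN2 share was above that of day 0 in BF and below it in IMF. PLIN2 was 62.7% ± 2.17 of the summed FPKM of the 5 perilipins in BF-0d, 80.8% ± 3.36 in BF-2d (82.4% without replicate 3), 90.4% ± 1.95 in BF-4d and 88.8% ± 5.40 in BF-8d (SD, n = 3). In IMF it was 73.9% ± 3.53, 79.3% ± 0.752, 73.6% ± 3.45 and 56.3% ± 4.43 on the same days, so the mean share was higher on day 2 than on day 0 in both depots. PLIN3 accordingly reached 43.6% ± 4.43 of the total in IMF-8d, against 11.2% ± 5.39 in BF-8d. The lowest IMF-8d share of PLIN3, 40.5%, lay above the highest BF-8d share, 17.4%. These shares are descriptions and were not tested.

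**Figure D2:**
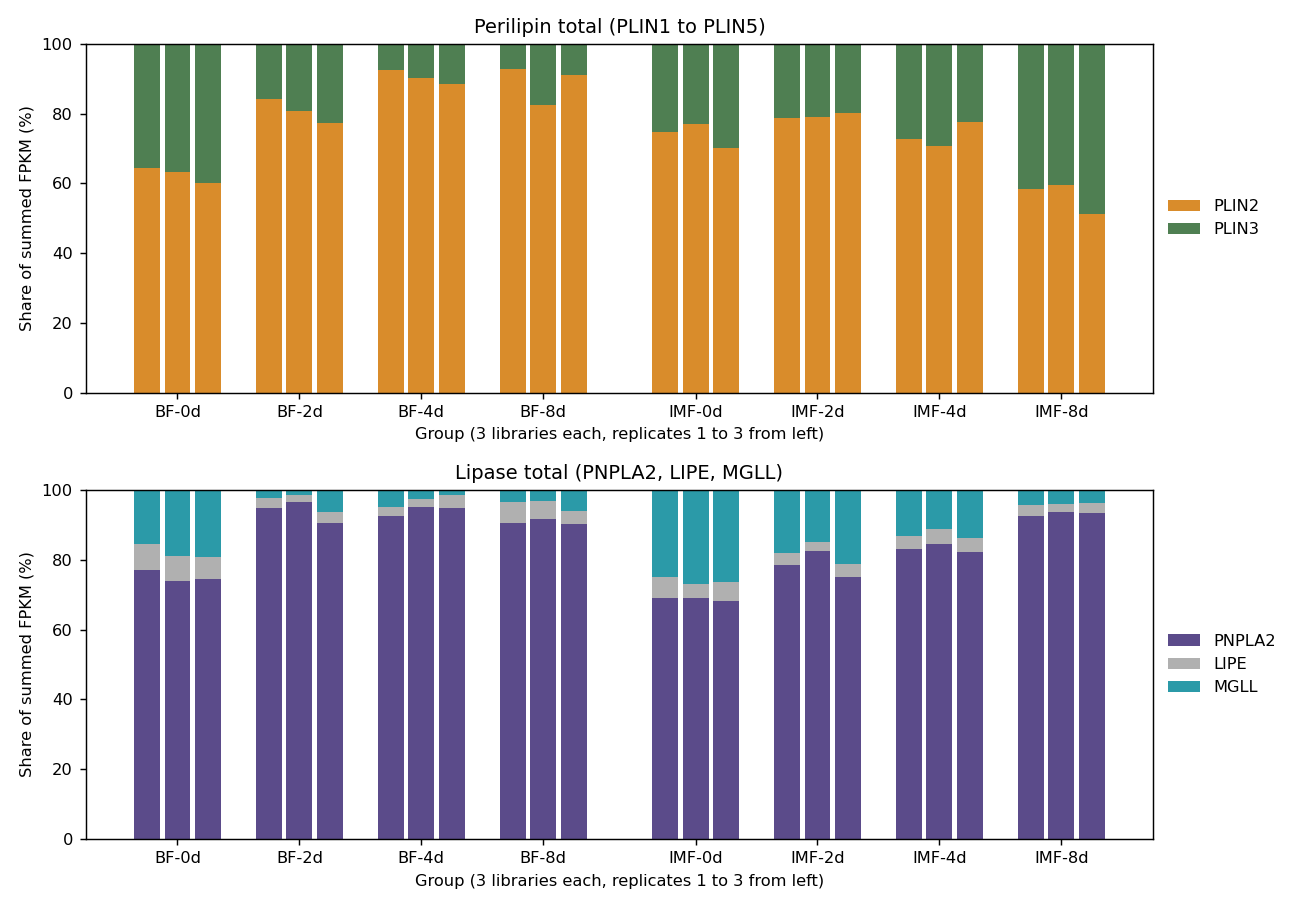
Stacked bars, 1 per library, of the percent share of PLIN2 and PLIN3 in the summed FPKM of PLIN1 to PLIN5 (upper panel) and of PNPLA2, LIPE and MGLL in their summed FPKM (lower panel), for the 8 groups. PLIN2 takes a mean of 90.4% of the perilipin total in BF-4d and 56.3% in IMF-8d, and the mean MGLL share is 4.18% in BF-8d and 3.93% in IMF-8d.

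The other perilipins were near absent. PLIN1, the coat protein that defines the droplets of fat cells, did not exceed 0.0773 FPKM and was listed at 0 in 16 of 24 libraries, all 9 libraries of BF-8d, IMF-4d and IMF-8d among them. PLIN4 ranged from 0.00661 to 0.0448 FPKM. PLIN5 was listed at 0 in all 24. None of the 3 passed the filter on low values, so that 7 of the 10 members were tested. PLIN5 lies 309298 bases after the end of PLIN3 on chromosome 2 and PLIN4 another 4309 bases after PLIN5, and neither came near the level of PLIN3.

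CIDEC, the droplet growth factor, was low throughout, with a maximum of 1.15 FPKM and a listed 0 in 2 libraries of BF-4d. Its FPKM was 0.558, 0.669 and 0.511 in BF-0d, 0.141, 0.0893 and 0.193 in BF-2d, 0, 0 and 0.127 in BF-4d, and 1.15, 0.317 and 0.563 in BF-8d. BF-2d and BF-4d thus lay below BF-0d, and BF-8d lay above BF-4d without overlap. The log2 differences were -0.47 from BF-0d to BF-2d (limma adjusted p = 0.00710, and -0.50 with adjusted p = 0.00898 without BF-2d replicate 3) and 0.66 from BF-4d to BF-8d (adjusted p = 0.00112). In IMF the step from day 4 (0.0834 to 0.217) to day 8 (0.457 to 0.750) was 0.43 (adjusted p = 0.0109). None reached the fold limit, which at this level the added 1 FPKM makes hard to reach. With 0.1 FPKM added instead, the BF differences were -1.51 and 2.42, and both were called.

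PNPLA2, the lipase of the first step, was the most abundant of the lipolysis genes and kept within 16.7 to 38.3 FPKM. In BF it was 17.2, 16.9 and 18.7 on day 0, 29.6, 38.3 and 31.9 on day 2, 22.5, 27.6 and 28.4 on day 4, and 20.1, 16.7 and 19.1 on day 8. BF-2d lay above all other BF days, and BF-8d overlapped BF-0d. The log2 difference from BF-0d to BF-2d was 0.88 (SE 0.12, limma adjusted p = 2.44e-05, and 0.90 with adjusted p = 3.63e-05 without BF-2d replicate 3), and from BF-4d to BF-8d -0.47 (adjusted p = 0.0119). In IMF the means were 20.4 ± 2.23, 21.0 ± 0.509, 22.1 ± 2.02 and 29.0 ± 3.95 FPKM, with a net difference of 0.49 (adjusted p = 0.00388).

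No difference of PNPLA2 reached the fold limit, so that none was called, although several passed the adjusted p. The depot difference was -0.63 on day 2 (limma adjusted p = 0.00101) and 0.61 on day 8 (adjusted p = 0.000699), with no overlap between the depots on either day. Without BF-2d replicate 3 the day 2 difference was -0.66 (adjusted p = 0.00110). The IMF change minus the BF change was -0.83 over days 0 to 2 (SE 0.17, adjusted p = 0.00487, and -0.86 with adjusted p = 0.00241 without that library) and 0.84 over days 4 to 8 (adjusted p = 0.00201). Over the 8 days it was 0.41 (adjusted p = 0.112).

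ABHD5, the coactivator of PNPLA2, had its highest mean on day 2 in BF and on day 4 in IMF. Its BF libraries were 2.60, 3.82 and 3.23 FPKM on day 0, 9.58, 6.51 and 4.39 on day 2, 6.66, 5.12 and 4.49 on day 4, and 3.28, 2.24 and 2.49 on day 8. The IMF libraries were 4.51 to 5.16 on day 0, 4.96 to 7.90 on day 2, 6.45 to 7.67 on day 4 and 3.39 to 3.95 on day 8. The day 8 libraries lay below those of day 4 in both depots. The first 2 IMF steps, 0.28 (limma adjusted p = 0.459) and 0.20 (adjusted p = 0.944), were not called. Over days 4 to 8 the log2 difference was -0.80 in BF (limma adjusted p = 0.00687) and -0.83 in IMF (adjusted p = 0.00247), and these differed by -0.03 with a 95% interval of -0.61 to 0.55. From BF-0d to BF-2d it was 0.85 (adjusted p = 0.00241), and 1.09 and called (adjusted p = 0.000106) without BF-2d replicate 3. Against PNPLA2, ABHD5 stood at 33.2 ± 5.75 FPKM per 100 FPKM of PNPLA2 in IMF-4d and 12.6 ± 2.09 in IMF-8d, without overlap. In BF the same ratio was 21.3 ± 7.32 on day 4 and 14.3 ± 1.76 on day 8, where the highest day 8 library lay above the lowest of day 4.

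LIPE, the hormone-sensitive lipase, stayed between 0.589 and 1.72 FPKM. Its means were 1.61, 0.955, 0.781 and 0.998 in BF and 1.51, 0.842, 1.06 and 0.906 in IMF. The differences over days 0 to 2 were -0.42 in BF (limma adjusted p = 0.0208) and -0.44 in IMF (adjusted p = 0.0449), and no comparison of LIPE was called. The net changes were -0.39 in both depots and differed by 0.00 with a 95% interval of -0.39 to 0.39.

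MGLL, the lipase of the last step, fell in both depots over the 8 days. In BF it was 3.44, 4.30 and 4.78 FPKM on day 0 and 0.653, 0.524 and 2.22 on day 2. It was 1.17, 0.758 and 0.372 on day 4 and 0.765, 0.585 and 1.24 on day 8. All later BF libraries were below day 0, and the one closest to it was BF-2d replicate 3. In IMF it was 7.38, 7.05 and 8.75 on day 0, 4.86, 3.68 and 6.03 on day 2, 3.50, 3.17 and 3.30 on day 4, and 1.21, 1.11 and 1.34 on day 8. The 4 IMF days did not overlap and followed each other downward.

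MGLL fell from BF-0d to BF-2d by 1.36 on the log2 scale (SE 0.22, limma adjusted p = 0.000125), and by 1.70 (adjusted p = 6.12e-07) without BF-2d replicate 3. With only the 2 compared groups in the fit it was not called (adjusted p = 0.0298). It fell from BF-0d to BF-8d by 1.48 (adjusted p = 1.67e-05) and from IMF-0d to IMF-8d by 1.97 (adjusted p = 1.01e-06). The step from IMF-4d to IMF-8d was -0.96 (adjusted p = 0.00234), and past the limit and called (adjusted p = 0.00679) without IMF-8d replicate 3. The depot difference was 0.76 on day 0 (adjusted p = 0.0270) and 0.27 on day 8 (adjusted p = 0.381). Between these days MGLL was higher in IMF, by 1.52 on day 2 (adjusted p = 7.31e-05) and 1.31 on day 4 (adjusted p = 8.88e-05). The day 2 difference was 1.86 (adjusted p = 2.87e-07) without BF-2d replicate 3, and was not called with only the 2 day 2 groups in the fit (adjusted p = 0.0467). The IMF change minus the BF change over days 0 to 2 was 0.77 and not called with all libraries, and 1.11 (adjusted p = 0.00333) without BF-2d replicate 3. Over days 4 to 8 it was -1.05 (adjusted p = 0.0260), and the same value passed at adjusted p = 0.00300 without that library. Over days 0 to 8 it was -0.49 (limma adjusted p = 0.310, 95% interval -1.15 to 0.17) and not called.

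Set against each other per length, the 3 lipases were led by PNPLA2 in every group. Its share of their summed FPKM was 75.3% ± 1.70 in BF-0d and 94% ± 3.15 in BF-2d, and 68.8% ± 0.416 in IMF-0d and 93.2% ± 0.584 in IMF-8d. MGLL made up 17.8% of the total in BF-0d, 3.24% ± 2.69 in BF-2d, 26.1% in IMF-0d and 3.93% in IMF-8d. In BF-8d MGLL was at 4.18%. The BF-2d libraries ranged from 1.32% to 6.32%, the highest being replicate 3, and their mean was 1.71% without it.

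Ordered by mean, the 8 groups gave a different ladder for each gene. For PLIN2 the order was BF-8d, BF-4d, BF-2d, IMF-2d, IMF-8d, IMF-0d, IMF-4d and BF-0d, in which BF-8d and BF-4d overlapped, as did the run from IMF-8d to IMF-4d. For PLIN3, IMF-8d and the 3 later BF days overlapped from one to the next at the top, and the 3 earlier IMF days at the bottom. For MGLL, IMF-0d stood alone above IMF-2d, BF-0d and IMF-4d, and below a gap came IMF-8d with the 3 later BF days. For PNPLA2 and LIPE every neighbour in the order overlapped the next.

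Counted over all comparisons, the members were called where PLIN2, PLIN3 and MGLL were called. For BF-0d to BF-2d the 7 tested members gave 2 calls (PLIN2 up, MGLL down), beside 6.59% of all genes tested (1063 genes). Without BF-2d replicate 3 ABHD5 was added, which made 3, and the count over all genes was 1615. From BF-2d to BF-4d it was 1 (PLIN2, all genes 3.35%) and from BF-4d to BF-8d 0 (all genes 2.93%). In IMF the counts were 0 over days 0 to 2 (all genes 0.787%), 0 over days 2 to 4 (all genes 0.0372%) and 1 over days 4 to 8 (PLIN3, all genes 7.25%). Over days 0 to 8, 2 members were called in BF (PLIN2 and MGLL, all genes 13.7%) and 2 in IMF (PLIN3 and MGLL, all genes 9.04%). With 7 genes, a single call is 14.3% of those tested, so counts of 0 or 1 say little against any of these backgrounds. At an unadjusted p under 0.05 the comparisons with no call held 3 members (BF-4d to BF-8d), 2 (IMF-0d to IMF-2d) and 0 (IMF-2d to IMF-4d) by limma, with or without its trend and robust options.

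Between depots, 0 members were called on day 0 (all genes 2.58%, 3 members at an unadjusted p under 0.05 by limma with or without its trend and robust options), 2 on day 2 (PLIN2 and MGLL, all genes 4.74%), 2 on day 4 (PLIN2 and MGLL, all genes 11.3%) and 1 on day 8 (PLIN2, all genes 6.96%). PLIN2 and MGLL went opposite ways on days 2 and 4, PLIN2 lower and MGLL higher in IMF. For the depot difference in the change, PLIN2 alone was called for the first step (all genes 2.45%), the second (all genes 3.06%) and the 8 days as a whole (all genes 4.98%). Over days 4 to 8, 0 members were called (all genes 6.39%), with 3 at an unadjusted p under 0.05 in both fits. The median log2 difference of the 7 members from BF-0d to BF-2d was 0.53 against -0.04 over all genes tested, and in the other 7 comparisons of days within a depot it lay between -0.14 and 0.08, with all genes between -0.07 and 0.02.

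**Figure D3:**
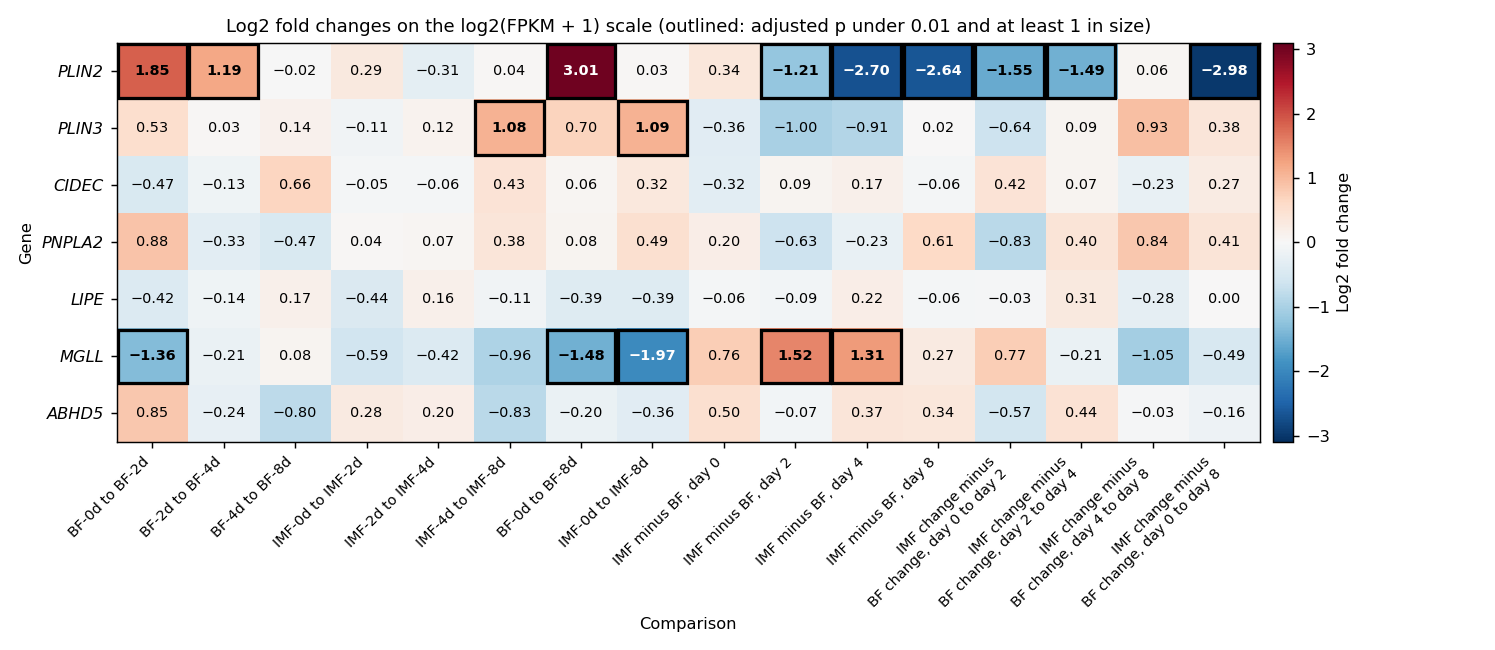
Heat map of the log2 differences, on the log2(FPKM + 1) scale, of the 7 tested members (lines) in the 16 comparisons (columns), red where higher and blue where lower, with the value in each cell and an outline where it was called. PLIN2 reaches 3.01 from BF-0d to BF-8d and 0.03 from IMF-0d to IMF-8d, while MGLL is outlined and negative in both.

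The genes around the members were read from 3 lists: inhibitors of lipolysis and other neutral lipid hydrolases, genes of droplet formation and growth, and hormone signalling to lipolysis. They held 62 genes, of which 52 were in the table and 46 were tested. From BF-0d to BF-2d 6 were called up and 3 down (19.6% of the 46, all genes 6.59%), from BF-2d to BF-4d 2 up and 0 down (4.35%, all genes 3.35%), and from BF-4d to BF-8d 2 up and 1 down (6.52%, all genes 2.93%). In IMF it was 1 up and 0 down (2.17%, all genes 0.787%), then 0 (2 at an unadjusted p under 0.05 by limma, all genes 0.0372%), then 7 up and 4 down from IMF-4d to IMF-8d (23.9%, all genes 7.25%). Over days 0 to 8 the counts were 7 up and 5 down in BF (26.1%, all genes 13.7%) and 10 up and 3 down in IMF (28.3%, all genes 9.04%). Between depots they were 0 higher and 1 lower in IMF on day 0 (2.17%, all genes 2.58%), 2 and 4 on day 2 (13.0%, all genes 4.74%), 3 and 9 on day 4 (26.1%, all genes 11.3%), and 3 and 2 on day 8 (10.9%, all genes 6.96%). For the IMF change minus the BF change they were 0 and 2 over days 0 to 2 (4.35%, all genes 2.45%), 1 and 1 over days 2 to 4 (4.35%, all genes 3.06%), 10 and 3 over days 4 to 8 (28.3%, all genes 6.39%), and 3 and 1 over days 0 to 8 (8.70%, all genes 4.98%). These shares describe lists chosen with earlier results known and were not tested. The median log2 difference of the 46 stayed between -0.10 and 0.25 in these 16 comparisons.

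Among the inhibitors, HILPDA, a small droplet protein that inhibits PNPLA2, rose over the 8 days in BF. It had 19.6 to 21.3 FPKM in BF-0d, 36.0, 30.6 and 110 in BF-4d and 126, 113 and 142 in BF-8d. In IMF it was 17.0 to 22.7 on day 0, 11.3 to 11.7 on day 4 and 31.3 to 37.3 on day 8. HILPDA rose from BF-0d to BF-8d by 2.58 (limma adjusted p = 8.61e-07) and from IMF-4d to IMF-8d by 1.51 (adjusted p = 0.000725). From IMF-0d to IMF-8d its difference was 0.81 (adjusted p = 0.0421) and not called. The IMF change minus the BF change over days 0 to 8 was -1.77 (adjusted p = 0.00715), and lost its call without any 1 of the 12 libraries of these groups, with adjusted p up to 0.0199. The IMF minus BF difference was -2.02 at day 4 and -1.84 at day 8. The step from BF-4d to BF-8d, 1.33 (adjusted p = 0.00466), lost its call without BF-4d replicate 1 (1.11, adjusted p = 0.0352), BF-4d replicate 2 or any of the 3 BF-8d libraries, with adjusted p up to 0.0399. G0S2, the other inhibitor of PNPLA2, did not exceed 1.12 FPKM and was not called, with a largest difference of 0.63 from IMF-0d to IMF-8d (adjusted p = 0.00708).

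2 other hydrolases met the rule for naming. ABHD6, which like MGLL splits monoacylglycerol, rose from IMF-4d (2.81 to 3.41 FPKM) to IMF-8d (15.1 to 16.2) by 2.03 (limma adjusted p = 3.40e-06) and from BF-0d (3.30 to 3.92) to BF-8d (7.72 to 14) by 1.42 (adjusted p = 7.65e-05). Its IMF change over days 4 to 8 exceeded the BF change by 2.30 (adjusted p = 0.000123). MGLL thus went down where ABHD6 went up, over the 8 days in both depots. NCEH1, a cholesteryl ester hydrolase, fell from BF-0d (33.1 to 36.8 FPKM) to BF-8d (2.22 to 3.68) by 3.17 (adjusted p = 1.77e-05) and from IMF-4d (26.1 to 36.8) to IMF-8d (4.23 to 4.73) by 2.50 (adjusted p = 0.000460). In BF-2d it was 2.70 and 3.37 in replicates 1 and 2 but 31.9 in replicate 3. PNPLA3, a relative of PNPLA2, did not exceed 1.62 FPKM and was not called.

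Of the droplet formation genes, BSCL2 (seipin, which shapes the budding droplet) stayed between 16.1 and 24 FPKM and was not called. LPCAT2, which makes phosphatidylcholine at the droplet surface, rose from BF-0d (2.23 to 2.90 FPKM) to BF-2d (5.80 to 17.6) by 1.69 (limma adjusted p = 6.18e-05, and by 2.07 with adjusted p = 5.24e-07 without BF-2d replicate 3) and from IMF-4d (1.05 to 1.27) to IMF-8d (mean 8.36) by 2.09 (adjusted p = 4.46e-06). SOAT1, which esterifies cholesterol for storage, rose from BF-0d to BF-2d by 2.18 (adjusted p = 0.000117), and by 2.86 without BF-2d replicate 3. IMF minus BF at day 4 was -2.96 for LPCAT2 and -2.18 for SOAT1, both called, while at day 8 it was 0.15 (adjusted p = 0.691, 95% interval -0.39 to 0.70) and -0.10 (adjusted p = 0.864, 95% interval -0.84 to 0.65). The mean of LPCAT2 was 16.1 FPKM in BF-4d, 7.61 in BF-8d and 8.36 in IMF-8d, and its BF step over days 4 to 8 was -1.02 (adjusted p = 0.00967), which lost its call in 19 of the 24 fits without 1 library (adjusted p up to 0.0677). SOAT1 had means of 27.9 in BF-4d, 12.0 in BF-8d and 11.3 in IMF-8d, and its BF step of -1.12 was not called (adjusted p = 0.0335). The IMF change minus the BF change over days 4 to 8 was 3.11 for LPCAT2 (adjusted p = 1.03e-05) and 2.08 for SOAT1 (adjusted p = 0.00666), the latter losing its call in 11 of the 24 fits without 1 library (adjusted p up to 0.0202).

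In the signalling list, 3 of the genes named were cAMP phosphodiesterases. PDE4B rose over days 0 to 2 in BF by 3.49 (2.48 to 4.46 FPKM against 39.5 to 63.0, limma adjusted p = 4.24e-07, and by 3.61 without BF-2d replicate 3) and in IMF by 2.56 (adjusted p = 9.43e-05). PDE4D rose from BF-0d to BF-2d by 2.37 (adjusted p = 0.000314, and by 2.88 with adjusted p = 1.56e-05 without that library) and from IMF-4d to IMF-8d by 2.44 (adjusted p = 0.000199). PDE3B, through which insulin restrains lipolysis, rose from BF-0d to BF-2d by 1.68 (adjusted p = 0.000636), with 0.166 to 0.311 FPKM on day 0 and 0.751 in BF-2d replicate 3 against up to 7.47 in the others, and the rise was 2.27 without that library. NPR1, the natriuretic peptide receptor, was higher in IMF by 1.74 on day 4 (adjusted p = 7.86e-10), with a difference of 0.11 on day 8 (adjusted p = 0.499), and fell from IMF-4d to IMF-8d by 1.37 (adjusted p = 2.88e-08). FABP4, the fatty acid carrier that binds LIPE, had 1.75 to 2.41 FPKM in BF-0d, whereas each of the 3 IMF-0d libraries lists it at 0. It was at 1.73 to 6.0 FPKM in BF-8d and 0.236 to 0.676 in IMF-8d (adjusted p = 4.22e-05). ADRB1, a receptor through which catecholamines start lipolysis, did not exceed 0.0767 FPKM and was listed at 0 in 21 libraries, and ADRB3, another such receptor, did not exceed 0.0133 and was at 0 in 23.

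**Figure D4:**
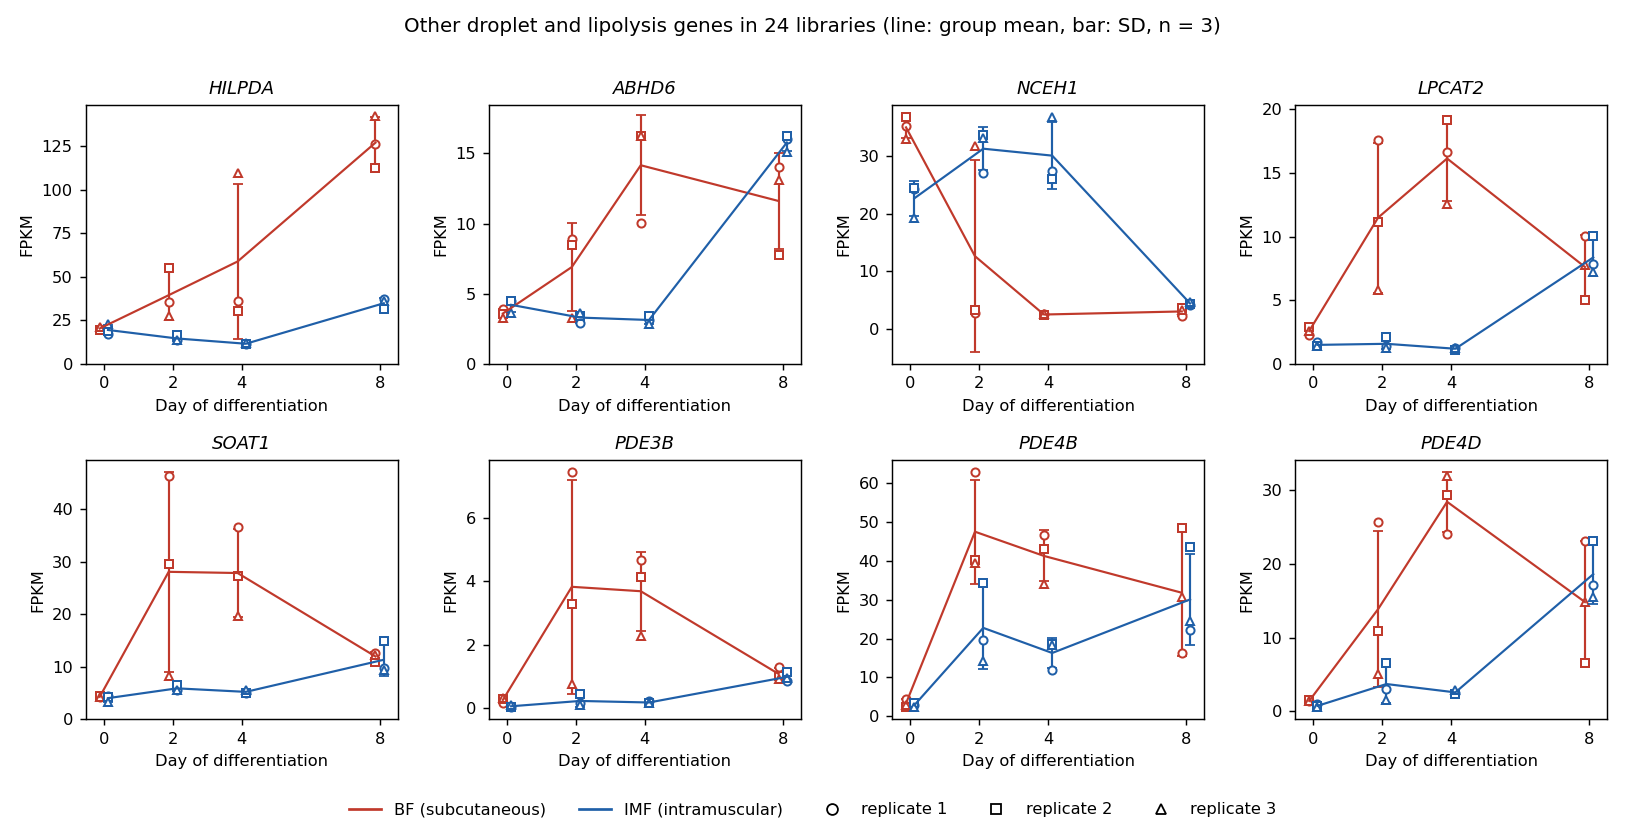
FPKM of HILPDA, ABHD6, NCEH1, LPCAT2, SOAT1, PDE3B, PDE4B and PDE4D against the day of differentiation, with BF in red and IMF in blue, a marker per library, lines through the group means and bars for the SD (n = 3). NCEH1 is at 2.35 to 2.63 FPKM in BF-4d and 26.1 to 36.8 in IMF-4d, and the BF-2d triangle (replicate 3) lies apart at 31.9.

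For each member with a group mean of at least 1 FPKM, the 3 genes with the most similar log2(FPKM + 1) over the 24 libraries, among the 10087 tested genes with a symbol and a group mean of at least 1 FPKM, were listed by Pearson's r, as a description, since the 3 libraries of a group share depot and day. For PLIN2 they were ANGPTL4 (0.96), TFAP2C (0.95) and FZD5 (0.95). TFAP2C was near the floor, with a mean of 0 in every IMF group and a highest mean of 1.77 FPKM, in BF-4d. ANGPTL4, a secreted inhibitor of lipoprotein lipase, had means of 3.55 FPKM in BF-0d and 108 in BF-8d, against 6.97 and 7.12 in IMF. For PLIN3 they were NFKB2 (0.97), GRINA (0.93) and PDXK (0.93), and for PNPLA2 HYAL2 (0.93), SCAND1 (0.91) and YIPF3 (0.91). For MGLL they were CCDC141, CAP1 and EHD3, each at 0.97, for LIPE RNPEPL1 (0.88), NRL (0.86) and TBC1D25 (0.85), and for ABHD5 TIMM8A (0.91), ODAD4 (0.88) and DEPTOR (0.85). No gene was in the list of 2 members.

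Exact matches to 6 motifs were sought on both strands from 250 bases before to 50 after the annotated start of each member, beside 19572 promoters of the same length in the same annotation. The PPAR response element (AGGTCA repeated after 1 base), the cAMP response element TGACGTCA and the glucocorticoid response element (AGAACA and TGTTCT with 3 bases between) matched in 0 of the 10 members. They matched in 0.0307%, 2.25% and 0.00511% of all promoters. GCGTG matched in 6 members (PLIN3, PLIN4, PLIN5, PNPLA2, MGLL and ABHD5) and in 37.3% of all promoters. ACGTG matched in 2 members (PLIN4 and MGLL) and in 22.2% of all. TATAAA matched in 2 members (PLIN1 and PLIN3, in the latter after the start) and in 10.9% of all. The PLIN2 window matched none of the 6, which says only that these letters are not in it. A match describes the sequence and does not show a bound factor.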

How the data were processed

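Polyadenylated RNA of 24 cultures was sequenced as paired reads. The authors aligned reads to Sscrofa11.1 with HISAT2, assembled transcripts and computed FPKM with StringTie 1.3.4d, and called differences with DESeq2 1.6.3, and the table used here holds their deposited FPKM per gene, not counts. FPKM gives no read depth, so no counting interval is given. Groups follow the labels for depot and day. The labels do not say that replicates are separate piglets, so p-values measure only the spread between these samples, which may be technical.

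Genes with an FPKM sum above 1 (16135 of 25462) were fitted as log2(FPKM + 1) with limma 3.58.1 in R 4.3.3, with 1 mean per group over all 24 libraries, eBayes with trend and robust, and Benjamini-Hochberg adjustment per comparison (adjusted p under 0.01 and log2 difference of at least 1). The procedure was tested on simulated data, with the same spread of each gene in every group and changes planted in IMF-8d only. It was read for IMF-4d to IMF-8d, so it does not cover groups of unequal spread. The members and gene lists were chosen with earlier results of these data known. Genes named from the lists were those called in 3 or more of the 10 comparisons of successive days or of depots, plus the inhibitors and receptors fixed by name, and FPKM of PPARG, CEBPA, ADIPOQ and FABP4 served as label checks. Same-numbered replicates did not deviate together (median r 0.00136 over 84 pairs, 9 over 0.1, against -0.00113 over 168 other pairs, 20 over 0.1), so no pairing was used. Promoter windows were cut from the Sscrofa11.1 genome at RefSeq gene starts, in place of a ready-made promoter table. Alternatives were another pseudocount (0.1), other filters, median ratio scaling, quantile normalization, eBayes without trend and robust, a replicate block, only the compared libraries, and leaving out each library. Python 3.11.15, pandas 2.3.3, numpy 2.4.6 and matplotlib 3.10.9 were used.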

Additional observations from a re-analysis of the deposited data

Results flagged for a closer look

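5 results on the members were listed because the change over time differed between the depots by a test of the difference itself (IMF change minus BF change, limma adjusted p under 0.01). The differences were, for PLIN2, -1.55 over days 0 to 2, -1.49 over days 2 to 4 and -2.98 over days 0 to 8, and for PNPLA2, -0.83 over days 0 to 2 and 0.84 over days 4 to 8. PLIN2 went up in BF while its IMF values stayed between 22.3 and 30.7 FPKM. PNPLA2 was at its highest in BF on day 2 and in IMF on day 8, and both of its differences were under the fold limit of 1. The difference of PLIN2 over the 8 days kept its call in every fit without 1 library, whereas those of its single steps did not.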

How the results depend on the processing

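Replicate numbers were not used to pair the samples, since the labels do not say that the same number stands for the same piglet. A replicate block left the count of called members as it was in all 16 comparisons (2 from BF-0d to BF-2d, for example) and changed none of the 25 member results followed, and the count of all genes called stayed within 1.5 times. With a pseudocount of 0.1 the members called were 4 in place of 2 from BF-0d to BF-2d (CIDEC and ABHD5 added), 1 in place of 0 from BF-4d to BF-8d (CIDEC), 2 in place of 1 from IMF-4d to IMF-8d (MGLL added) and 3 in place of 2 for the depots on day 2 (PLIN3 added, -1.08). With only the compared libraries in the fit, the count was 0 in both of the first BF steps, 0 for the depots on day 2 and 0 for the difference in change over days 0 to 2 and over days 2 to 4, and 1 (MGLL) over days 4 to 8. PLIN2 then had limma adjusted p values of 0.0120, 0.167, 0.0607, 0.0160 and 0.0382 at unchanged differences. All 7 member calls lost in this setting were in comparisons that include BF-2d. There the SD of PLIN2 was 25.8 FPKM, against 1.22 in IMF-2d. The part of unequal spread between the groups in these losses was not tested. Without a filter on low values, 21696 genes were fitted. PLIN2 then lost its call for the difference in change over days 2 to 4 (limma adjusted p = 0.0118), which left 0 members. Leaving out 1 library gave 0 to 1 called members from BF-2d to BF-4d, 0 to 1 from IMF-4d to IMF-8d, 1 to 2 from IMF-0d to IMF-8d, and for the difference in change 0 to 2 over days 0 to 2, 0 to 1 over days 2 to 4 and 0 to 1 over days 4 to 8. Median ratio scaling and quantile normalization added the calls of PLIN3 between depots on day 2 (-1.15 and -1.07) and day 4 (-1.07 and -1.05), without turning any direction. None of these results turned its direction under the alternatives run. Median ratio scaling moved 9 of 80 group levels by more than 1 SD, and 12 of 18 most similar genes stayed in the first 3.

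The number of all genes called moved by over 1.5 times in some fits. With a pseudocount of 0.1 it went from 1063 to 2020 (BF-0d to BF-2d), 541 to 970 (BF-2d to BF-4d), 472 to 916 (BF-4d to BF-8d), 6 to 2 (IMF-2d to IMF-4d), 1169 to 2103 (IMF-4d to IMF-8d), 2206 to 3939 (BF-0d to BF-8d), 1459 to 2469 (IMF-0d to IMF-8d), and for the depots from 417 to 759, 764 to 1474, 1826 to 3194 and 1123 to 2154 on days 0, 2, 4 and 8. With only the compared libraries it was 237, 0 and 4 for the 3 BF steps, 107 for the depots on day 2, and 132 and 33 for the first 2 differences in change (395 and 493 with all). Leaving out 1 library gave 698 to 1615 from BF-0d to BF-2d, 405 to 851 and 295 to 832 for the later BF steps, 69 to 166 (127 with all) and 2 to 10 for the first IMF steps, 445 to 1287 for the depots on day 2, and 193 to 1182 and 270 to 879 for the first 2 differences in change. The highest of those counts from BF-0d to BF-2d, for the depots on day 2 and for the first difference in change came without BF-2d replicate 3, as did the 10.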
